A study of Mus musculus with 17 samples.

Results

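Chemokine ligands are small secreted or membrane-anchored proteins, and here they were taken as the protein-coding mouse genes whose symbol begins with Ccl or Cxcl and a digit, together with Cx3cl1 and Xcl1. The rule used names alone and no measured value. It found 37 genes among the 53313 gene identifiers shared by all 17 libraries, and 3 symbols of the same pattern that are not annotated as protein-coding were left out. Transcript levels were read in cultured primary tubular epithelial cells (PTEC) and in whole kidneys.

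Chemokines bind G protein-coupled receptors on leukocytes and direct where these cells go, and each ligand calls cells that carry its receptor. CXC ligands with an ELR motif draw neutrophils through Cxcr2, interferon-induced CXC ligands draw activated T cells through Cxcr3, and many CC ligands draw monocytes and lymphocytes. In kidney, injured tubular cells are a known source of inflammatory chemokines, which are also counted among the secreted factors of senescent cells, whereas homeostatic ligands such as Cxcl12 are made in healthy tissue.

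The study asked how senescence in culture and chronological age change the tubular transcriptome. Its 4 non-senescent PTEC cultures were harvested on day 6 without irradiation, and its 4 senescent cultures on day 16 after γ-irradiation with 10 Gray. Kidneys came from male mice of 3, 12 and 24 months, 3 per age, each sampled from the right kidney. All groups were wild type (WT) and of the C57BL/6Rj background (C57BL/6JRj in the authors' methods), and none carried a transgene. Irradiation and a longer time in culture changed together in the PTEC, so their parts cannot be told apart. The labels do not say whether cultures came from separate animals, so p-values for PTEC measure the spread between these cultures. PTEC were grown from sieved fragments of collagenase-digested kidney without a sort for a cell type.

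Libraries held 26963442 to 35409144 counted reads in PTEC and 37311247 to 66894790 in kidneys. The 3-month-old kidneys were the shallowest of the kidneys and had been counted on another gene set than the older ones, so counting and age cannot be told apart in comparisons with 3 months. Levels are given as CPM, read counts scaled to a common library size with the TMM method. A count of 3 reads, the lowest taken as a measurable level, came to 0.0811 to 0.118 CPM in PTEC and to 0.0456 to 0.0788 CPM in kidneys, and covers counting error only. All 6 tubular epithelium markers exceeded 1 CPM in both PTEC groups, while the sum of 9 proximal tubule markers was 170 to 812 CPM in PTEC against 6498 to 14782 CPM in kidneys. Macrophage markers summed to 82.0 to 274 CPM in PTEC, and 7 fibroblast and pericyte markers to 77.5 to 157 CPM in non-senescent and 553 to 1161 CPM in senescent PTEC. Of 12 T and NK cell markers, none reached a mean of 1 CPM in PTEC, and Cd3d and Cd3g, chains of the T cell receptor complex, were at 0 in all 8 cultures. In whole kidney or mixed culture, fewer cells of a type and less RNA per cell cannot be told apart.

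A mean of at least 1 CPM was reached by 17 of the 37 ligands in non-senescent PTEC, 16 in senescent PTEC, and 12, 12 and 14 in kidneys of 3, 12 and 24 months. Counting every group, 21 ligands reached it. Ccl21b, Ccl26 and Ccl27b were at 0 in all 17 libraries. Of these, Ccl21b and Ccl27b have near-identical copies in the genome, Ccl21a and Ccl27a, so reads from either copy may have been lost or assigned to the other. Exons of Cxcl16, Ccl25, Cxcl10, Xcl1 and Ccl27a overlap 552, 204, 133, 98 and 8 bases of a gene on the opposite strand (Zmynd15, Elavl1, Art3, Gm20743 and Il11ra1), and the strand setting of the counting is not given in the sources used here.

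The ligands that led each group differed between culture and tissue. Per kilobase of annotated exon, the scale on which genes can be set side by side, non-senescent PTEC were led by Cxcl16 with 33.4 ± 6.83 CPM per kilobase (mean ± SD, n = 4), Cxcl1 with 23.7 ± 3.21 and Ccl2 with 18.2 ± 2.24. Cxcl2 followed with 11.4 ± 2.99 and Ccl20 with 10.1 ± 1.90, which lay within each other's spread. In senescent PTEC the order was Cxcl16 with 23.5 ± 9.72, Ccl6 with 13.1 ± 11.2, Ccl2 with 10.1 ± 0.449 and Cxcl1 with 7.22 ± 2.32, and the spread of Ccl6 covered both of its neighbours. In kidneys Cx3cl1 had the highest mean at every age, with 14.7 ± 3.91, 21.3 ± 6.01 and 26.8 ± 9.13 CPM per kilobase at 3, 12 and 24 months (n = 3 each). At 3 months Cxcl12 with 13.1 ± 1.0 and Cxcl16 with 12.2 ± 3.73 were within the spread of Cx3cl1. At 12 months Cxcl14 with 19.5 ± 3.46 and Cxcl12 with 19.0 ± 5.43 were within it too, and in mouse 2 of that age both exceeded Cx3cl1, with 23.4 and 25.2 against 14.5 CPM per kilobase. PTEC and kidneys were separate experiments, and levels between them are a description without a test.

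**Figure D1:**
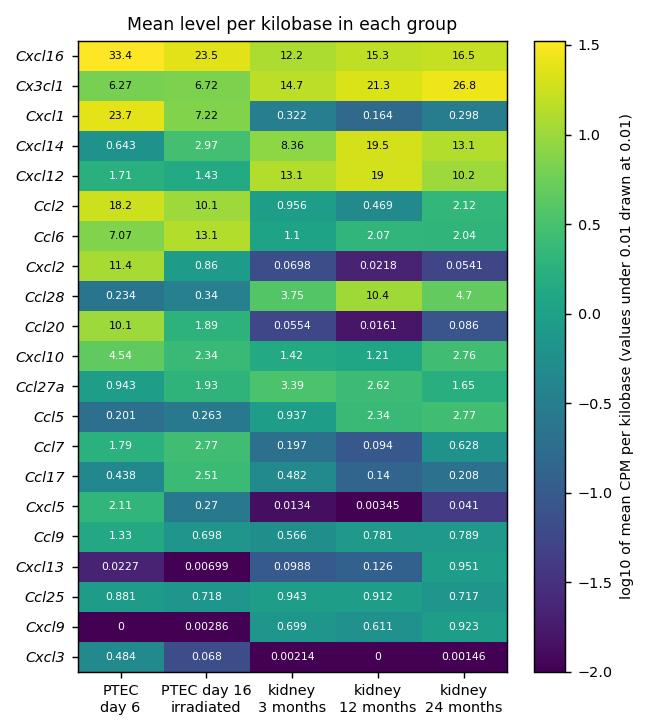
Mean level of the 21 ligands that reached 1 CPM in some group, in CPM per kilobase of exon, with groups as columns (4 PTEC cultures or 3 kidneys each), ligands as rows and colour on a log10 scale. Cxcl1 stands at 23.7 in non-senescent PTEC and at 0.322 in 3-month-old kidneys, whereas Cx3cl1 has the highest kidney means, 14.7 to 26.8.

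Senescent against non-senescent PTEC addressed which ligands change after irradiation and prolonged culture. The neutrophil-attracting ligands Cxcl1, Cxcl2, Cxcl3 and Cxcl5 and the epithelial ligand Ccl20 were down-regulated, by 3.28-fold to 13.1-fold, and the monocyte attractant Ccl2 by 1.81-fold. Cxcl14, Ccl17, Ccl27a and Ccl7 were up-regulated, by 1.54-fold to 5.67-fold. Of the 37 ligands, 18 passed the filter on low counts and were tested, and 4 were called up, 6 down and 8 not called at an adjusted p under 0.05 and a log2 fold change beyond 0.5. Among all 15434 genes tested, 20.1% were called up and 19.7% down, so the share of called ligands can be read only against a transcriptome in which such calls were common. With the replicate number as a block, 5 ligands were called up and 9 down, beside 23.2% and 21.3% of all genes in that fit, the further ones being Ccl6, up, and Cxcl10, Cxcl16 and Ccl9, down. The median log2 fold change of the tested ligands was -0.40, beside -0.00 over all genes.

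The ELR CXC ligands, which bind Cxcr2 on neutrophils, lie together on chromosome 5 (GRCm38) on the plus strand: Cxcl5 at chr5:90759360-90761624, Cxcl3 at chr5:90786103-90789600, Cxcl1 at chr5:90891241-90893115 and Cxcl2 at chr5:90903871-90905938. All 4 were down-regulated in senescent PTEC, and Cxcl15, the fifth of the list, was at 0 in PTEC apart from 1 read in senescent culture 4. The RefSeq table (GRCm38.p6) gave the 250 bases before the start of 27 of the 37 ligands, in 33 windows. Those of Cxcl1, Cxcl2 and Cxcl3, which fell together, are shown because each holds the letters GGANNTTCC, the core of the kappaB motif bound by NF-kB, and that of Cxcl10, which lay lower without passing the threshold, holds them as well. The window of Ccl20, which also fell, does not hold these letters, and Cxcl5 and Ccl2 are not among the 27. Capitals mark the motif, sequences run 5′ to 3′ on the gene's strand, and positions count back from the start, the last base before it being -1.
Cxcl1, chr5:90890995-90891244, plus strand, motif from -70: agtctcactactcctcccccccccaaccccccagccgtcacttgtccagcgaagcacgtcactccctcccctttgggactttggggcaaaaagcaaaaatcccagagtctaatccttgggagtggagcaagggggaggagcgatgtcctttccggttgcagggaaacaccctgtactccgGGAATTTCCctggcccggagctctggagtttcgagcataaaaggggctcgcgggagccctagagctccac
Cxcl2, chr5:90903649-90903898, plus strand, motif from -96: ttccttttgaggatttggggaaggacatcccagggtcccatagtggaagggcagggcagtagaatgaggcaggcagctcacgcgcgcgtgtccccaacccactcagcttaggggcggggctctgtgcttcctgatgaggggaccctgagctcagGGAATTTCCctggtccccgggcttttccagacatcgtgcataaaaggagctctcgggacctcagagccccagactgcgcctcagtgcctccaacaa
Cxcl3, chr5:90785851-90786100, plus strand, motif from -72: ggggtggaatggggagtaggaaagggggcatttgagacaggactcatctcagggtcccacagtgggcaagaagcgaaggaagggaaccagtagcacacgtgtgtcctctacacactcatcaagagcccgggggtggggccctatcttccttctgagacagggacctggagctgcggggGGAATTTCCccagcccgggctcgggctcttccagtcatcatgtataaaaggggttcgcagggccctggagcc
Cxcl10, chr5:92348890-92349139, minus strand, motif from -158, and from -213 the letters GAAANNGAA on either strand, the core of the interferon-stimulated response element (ISRE): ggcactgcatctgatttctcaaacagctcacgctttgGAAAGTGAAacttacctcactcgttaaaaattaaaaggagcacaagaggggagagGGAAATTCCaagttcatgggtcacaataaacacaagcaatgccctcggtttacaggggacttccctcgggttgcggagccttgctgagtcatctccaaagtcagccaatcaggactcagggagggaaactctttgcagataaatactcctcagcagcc

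Searched on both strands, GGANNTTCC occurred in 6 of the 33 ligand windows (Ccl1, Ccl12, Cxcl1, Cxcl2, Cxcl3 and Cxcl10) and in 3.59% of 32851 RefSeq windows of the same length. The ISRE core was found in 6 windows (Ccl1, Ccl3, Ccl19, Cxcl9, Cxcl10 and Cxcl14) and in 7.13% of all. Such matches describe letters in a window and were not tested as binding sites.

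Cxcl2, the most strongly reduced ligand, stood at 31.0, 19.3, 26.2 and 17.8 CPM in the 4 non-senescent cultures and at 1.19, 1.57, 3.11 and 1.24 CPM in the 4 senescent ones. Every senescent culture was far below every non-senescent one, and the log2 fold change was -3.71 (SE 0.351, adjusted p = 4.97e-05). Cxcl5 stood at 3.78, 4.30, 3.80 and 3.80 CPM against 0.322, 0.268, 0.837 and 0.587 CPM. The groups did not overlap (log2 fold change -2.94, SE 0.354, adjusted p = 0.000198), and the senescent values rest on 8 to 31 reads per culture. Cxcl3 stood at 2.24, 1.21, 1.73 and 1.59 CPM against 0.0965, 0.134, 0.513 and 0.207 CPM. It too was lower in every senescent than in every non-senescent culture (log2 fold change -2.77, SE 0.468, adjusted p = 0.00129). Senescent culture 1 had 3 reads, which is the lowest level taken as measurable.

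Cxcl1 stood at 47.3, 35.4, 47.4 and 47.7 CPM in non-senescent PTEC and at 12.3, 10.1, 19.9 and 11.7 CPM in senescent PTEC. Its lowest non-senescent culture was still above the highest senescent one, and the log2 fold change was -1.71 (SE 0.221, adjusted p = 0.000293). The 7 neutrophil markers summed to 0.584 to 1.18 CPM in non-senescent and 0.161 to 0.324 CPM in senescent PTEC, and none had a mean of 1 CPM. Of these, S100a9, Camp and Retnlg were at 0 in all 8 cultures, while the others had reads in some. Ly6g, the 1 neutrophil marker that passed the filter, fell from 0.650 ± 0.242 to 0.113 ± 0.0762 CPM (mean ± SD, n = 4 each, log2 fold change -2.43, adjusted p = 0.00320), and the part of these cells in the ligand values was not tested. Ppbp and Pf4, the platelet CXC ligands outside the naming rule, fell as well. Ppbp went from 88.9 ± 40.3 to 22.7 ± 9.89 CPM (log2 fold change -1.97, adjusted p = 0.00332) and Pf4 from 0.90 ± 0.677 to 0.0553 ± 0.0317 CPM, which is under the level of 3 reads (log2 fold change -3.94, adjusted p = 0.000988). In kidneys the 4 ELR ligands that fell in PTEC were low, with means from 0 to 0.604 CPM at the 3 ages.

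**Figure D2:**
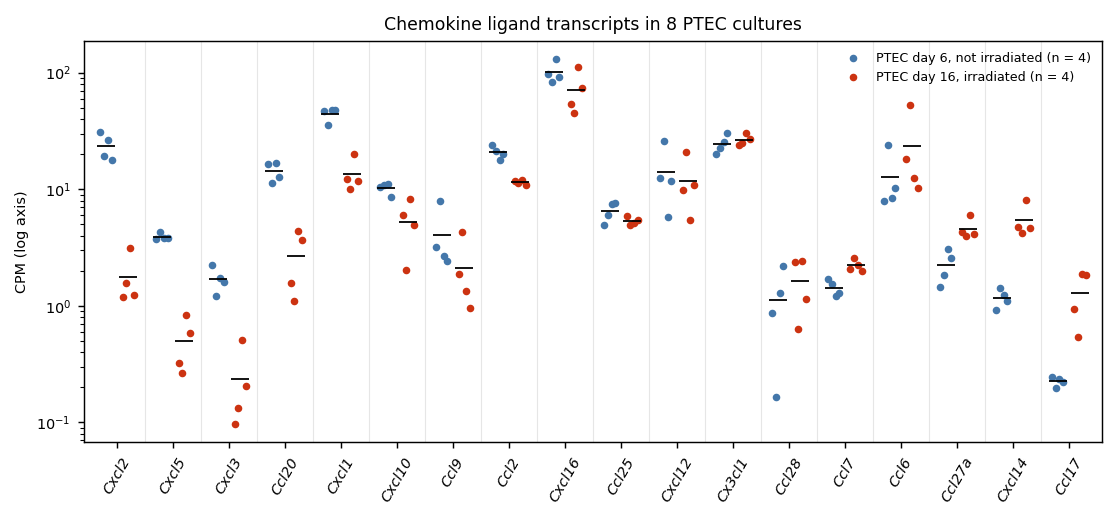
CPM of the 18 tested ligands in each PTEC culture (log axis), with 4 non-senescent cultures in blue, 4 senescent cultures in red and group means as bars, ordered by log2 fold change. The 6 ligands called down (Cxcl2, Cxcl5, Cxcl3, Ccl20, Cxcl1 and Ccl2) show no overlap between groups, and neither do Cxcl14, Ccl17, Ccl27a and Ccl7, which were called up. Cxcl10, which was not called, shows none either. Over all genes tested, 20.1% were called up and 19.7% down, and the share without overlap was not computed.

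Of the Cxcr3 ligands, which attract activated T and NK cells, only Cxcl10 was measurable in PTEC. Cxcl10 stood at 10.5, 10.8, 11.1 and 8.53 CPM in non-senescent and at 5.98, 2.01, 8.21 and 4.91 CPM in senescent PTEC. The groups did not overlap, but the difference missed the threshold narrowly (log2 fold change -0.95, SE 0.351, adjusted p = 0.0512). With the replicate number as a block it passed (log2 fold change -1.07, adjusted p = 0.0193), as it did in DESeq2 (adjusted p = 0.0300). Without culture 2 of both groups the adjusted p was 0.101. Cxcl9 was at 0 in all non-senescent cultures and had 1 read in the senescent ones.

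The membrane-anchored ligands Cxcl16, which binds Cxcr6, and Cx3cl1, or fractalkine, which binds Cx3cr1 on monocytes and macrophages were both well expressed and were not called. Cxcl16 stood at 97.1, 83.6, 131 and 92.0 CPM in non-senescent and at 53.5, 45.4, 111 and 73.4 CPM in senescent PTEC, with overlapping groups (log2 fold change -0.51, SE 0.270, adjusted p = 0.155). Under the replicate block it was called down (log2 fold change -0.57, adjusted p = 0.00856). Cx3cl1 stood at 20.0, 22.8, 25.4 and 30.5 CPM against 23.8, 25, 30.2 and 26.8 CPM, with a log2 fold change of 0.10 (SE 0.159, adjusted p = 0.640).

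The Ccr2 ligands Ccl2 and Ccl7, both monocyte attractants encoded near each other on chromosome 11 (chr11:82035571-82037453 and chr11:82045712-82047525), moved in opposite directions. Ccl2 stood at 23.9, 21.4, 17.8 and 20.0 CPM in non-senescent and at 11.7, 11.3, 12.0 and 10.8 CPM in senescent PTEC. Both groups were tight and did not overlap (log2 fold change -0.86, SE 0.140, adjusted p = 0.00104). Ccl7 stood at 1.69, 1.54, 1.22 and 1.29 CPM against 2.09, 2.55, 2.24 and 2.0 CPM. The rise of Ccl7 was close to the threshold (log2 fold change 0.63, SE 0.223, adjusted p = 0.0447), and it was lost whenever any 1 of the 8 cultures was left out, with an adjusted p of up to 0.121. The difference between both genes was not tested. The other ligands of this type (Ccl8, Ccl11, Ccl12, Ccl24 and Ccl26) did not pass the filter in PTEC and reached at most 0.314 CPM in a culture.

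The Ccr1 ligands Ccl6 and Ccl9, CC chemokines made by myeloid cells, varied widely between cultures of one group. Ccl6 stood at 7.96, 24.1, 8.43 and 10.3 CPM in non-senescent and at 18, 53.3, 12.6 and 10.3 CPM in senescent PTEC, highest in culture 2 of each group (log2 fold change 0.89, SE 0.553, adjusted p = 0.219). Ccl9 stood at 3.2, 7.94, 2.67 and 2.44 CPM against 1.87, 4.32, 1.35 and 0.967 CPM (log2 fold change -0.94, SE 0.530, adjusted p = 0.180). Under the replicate block Ccl6 was called up (log2 fold change 0.73, adjusted p = 0.0161) and Ccl9 down (log2 fold change -0.98, adjusted p = 0.00502), and without culture 2 of both groups neither was called (adjusted p = 0.113 and 0.0595). With 1 culture left out, the log2 fold change ran from 0.11 to 1.4 for Ccl6 and from -1.54 to -0.39 for Ccl9, with both ends reached without culture 2 of one group or the other. Among these fits Ccl9 was called only without senescent culture 2 (adjusted p = 0.0357), and Ccl6 in none.

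Culture 2 also held the highest sum of the 11 macrophage markers in each group, 178 CPM against 117 to 146 CPM in the other non-senescent cultures and 274 CPM against 82.0 to 127 CPM in the other senescent ones. Cxcl12, the homeostatic ligand of Cxcr4, stood at 12.6, 25.9, 5.77 and 11.7 CPM in non-senescent and at 9.94, 20.8, 5.40 and 10.8 CPM in senescent PTEC. It was highest in culture 2 and lowest in culture 3 of both groups, with no call between groups (log2 fold change -0.26, SE 0.478, adjusted p = 0.692). The 7 endothelial markers summed to 122, 238, 67.1 and 141 CPM in non-senescent and to 139, 262, 64.4 and 133 CPM in senescent PTEC, also highest in culture 2 and lowest in culture 3. The part of these cells in the values was not tested. Ccl3, Ccl4 and Ccl5, inflammatory CC ligands, did not pass the filter and reached at most 1.35, 0.536 and 0.392 CPM.

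**Figure D3:**
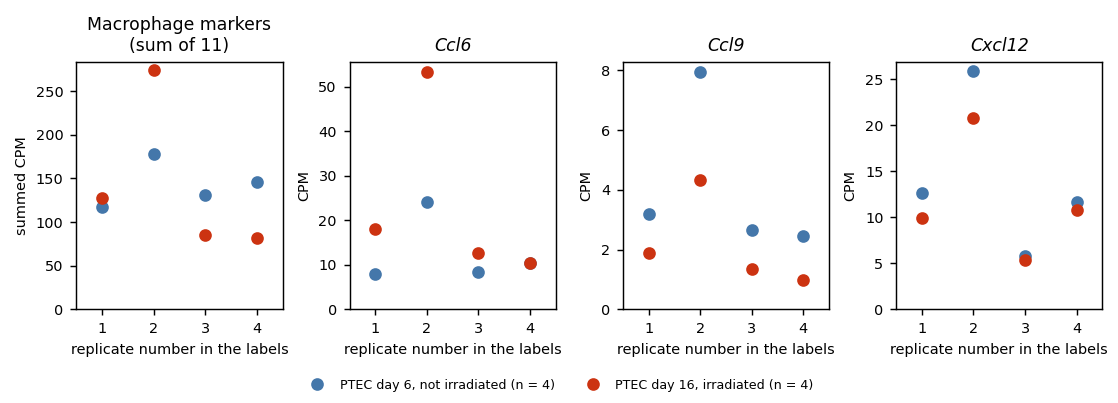
Summed CPM of 11 macrophage markers and CPM of Ccl6, Ccl9 and Cxcl12 in each PTEC culture, by replicate number (non-senescent in blue, senescent in red, linear axes from 0). Culture 2 is the highest of its group in all 4 panels, with 24.1 and 53.3 CPM of Ccl6 and 178 and 274 CPM of the markers.

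Epithelial and mucosal ligands moved both ways. Ccl20, the ligand of Ccr6 on Th17 and B cells, stood at 16.5, 11.4, 16.7 and 12.7 CPM in non-senescent and at 1.58, 1.11, 4.4 and 3.66 CPM in senescent PTEC. It was lower in each senescent culture (log2 fold change -2.41, SE 0.409, adjusted p = 0.00133). Cxcl14, a CXC ligand of epithelia, stood at 0.922, 1.41, 1.25 and 1.11 CPM against 4.76, 4.19, 8.16 and 4.63 CPM. Cxcl14 was higher in every senescent than in every non-senescent culture (log2 fold change 2.21, SE 0.286, adjusted p = 0.000297).

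Ccl27a, a ligand of Ccr10, stood at 1.44, 1.84, 3.1 and 2.58 CPM in non-senescent and at 4.28, 3.95, 5.97 and 4.11 CPM in senescent PTEC. The groups did not overlap (log2 fold change 1.03, SE 0.283, adjusted p = 0.0152), and without culture 2 of both groups the adjusted p was 0.0581. Ccl28, the other Ccr10 ligand, stood at 0.861, 0.164, 1.29 and 2.21 CPM against 2.38, 0.636, 2.43 and 1.14 CPM, and Ccl25, the Ccr9 ligand, at 4.98, 6.04, 7.53 and 7.68 CPM against 5.85, 4.92, 5.11 and 5.49 CPM. Neither was called (adjusted p = 0.515 and 0.254), and Cxcl17 reached at most 0.480 CPM.

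Among the remaining T cell ligands, Ccl17, which binds Ccr4 on Th2 and regulatory T cells, stood at 0.246, 0.197, 0.235 and 0.221 CPM in non-senescent and at 0.933, 0.536, 1.86 and 1.83 CPM in senescent PTEC. It had the largest rise of the tested ligands (log2 fold change 2.50, SE 0.442, adjusted p = 0.00165), from 6 to 8 reads per culture to 16 to 69. Ccl22, the other Ccr4 ligand, reached at most 0.0345 CPM, and Ccl1 and Xcl1 were at 0 in all PTEC. The windows before Ccl17 and Cxcl14, the ligands with the largest rises, are shown because they hold the letters TTCNNNGAA, the GAS motif. These letters were found on either strand in 2 of the 33 ligand windows, a share close to the 7.02% of all windows. The windows of Ccl27a, which also rose, do not hold them, and Ccl7 has no window. In Cxcl14 the ISRE core is capitalised as well.
Ccl17, chr8:94810203-94810452, plus strand, GAS from -99: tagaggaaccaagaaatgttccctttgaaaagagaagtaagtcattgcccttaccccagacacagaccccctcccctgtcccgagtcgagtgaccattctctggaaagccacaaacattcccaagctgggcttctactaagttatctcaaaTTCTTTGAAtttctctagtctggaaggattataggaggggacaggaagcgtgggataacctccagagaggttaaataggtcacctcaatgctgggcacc
Cxcl14, chr13:56296552-56296801, minus strand, GAS from -191, ISRE core from -172: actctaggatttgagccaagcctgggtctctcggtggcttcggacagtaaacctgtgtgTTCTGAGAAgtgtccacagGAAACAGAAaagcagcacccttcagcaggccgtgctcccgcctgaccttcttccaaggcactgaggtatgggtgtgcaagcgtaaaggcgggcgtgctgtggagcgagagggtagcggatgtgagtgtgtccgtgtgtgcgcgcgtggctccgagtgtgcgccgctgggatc

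**Figure D4:**
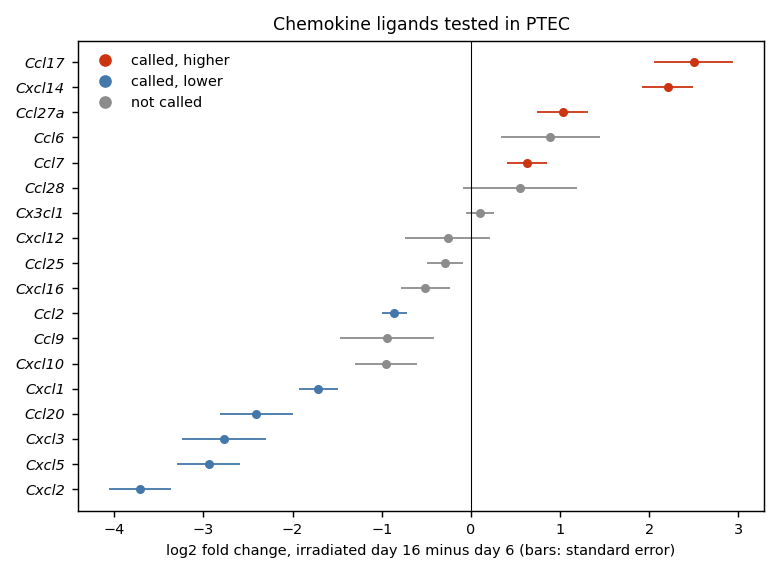
Log2 fold change of the 18 tested ligands in senescent against non-senescent PTEC (points) with standard errors (bars), coloured by call. Cxcl2 lies at -3.71 and Ccl17 at 2.50, and the 8 grey ligands did not pass the threshold.

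Markers of several cell types were called as well, in a comparison where 20.1% of all genes were called up and 19.7% down. Of the 7 fibroblast and pericyte markers 4 rose (Acta2, Dcn, Col1a2 and Pdgfrb), in the groups whose sums are given above. Of the proximal tubule markers, Hnf4a and Slc5a2 fell, and of the 6 tubular epithelium markers Cdh16 fell. Of the 7 pan-leukocyte markers, which summed to 21.9 to 42.1 CPM in non-senescent and 14.0 to 35.4 CPM in senescent PTEC, Coro1a, Ptprc and Lcp1 fell. Of the 10 macrophage markers tested Cd68 and Cd14 fell, and of the 6 endothelial markers tested Kdr fell, which are shares close to those of all genes, while the sums of both lists overlapped between the groups. With the replicate number as a block, Adgre1, Tek, Cubn, Krt8, Krt18 and Epcam were called down as well and Col1a1, Pdgfra, Mrc1, Lyz2, Flt1 and Emcn up. The part of these cells in the ligand changes was not tested.

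The genes around the ligands were read from lists of receptors, transcription pathways and cytokines. Among genes of the interferon response, Irf7 rose in senescent PTEC with a log2 fold change of 2.44 (adjusted p = 0.00155), Irf9 with 1.30 (adjusted p = 0.000341) and Stat2 with 1.25 (adjusted p = 0.00275), all of which encode transcription factors. Among the 13 NF-kB genes 1 rose and 2 fell there, beside 20.1% and 19.7% of all genes, and their log2 fold changes had a median of -0.31. At an unadjusted p under 0.05, 6 were lower and 1 higher, where 51.6% of all genes had such a p in either direction. Ikbkg, the regulatory subunit of the IkB kinase, rose (log2 fold change 0.89, adjusted p = 0.00270), whereas Birc3, with -0.68 (adjusted p = 0.00310), and Nfkb2, with -0.64 (adjusted p = 0.0235), fell. Tnf, a cytokine that induces many chemokines, fell from 1.11 ± 0.105 to 0.313 ± 0.151 CPM (mean ± SD, n = 4 each, log2 fold change -1.79, adjusted p = 0.00237).

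Of the 3 listed proteases that trim or shed chemokines, 2 fell, beside 19.7% of all genes. Dpp4, which truncates Cxcl10 and Cxcl12 among others, fell (log2 fold change -2.38, adjusted p = 0.000941), as did Adam17, a sheddase of Cx3cl1 (log2 fold change -0.56, adjusted p = 0.0103). Adam10, another sheddase of Cx3cl1, was not called (log2 fold change -0.18, adjusted p = 0.543). Ccrl2, an atypical receptor that does not signal like the classical ones, rose (log2 fold change 1.03, adjusted p = 0.0287). Only Ccr1 and Cxcr4 of the 18 chemokine receptors passed the filter in PTEC, and edgeR called neither, with 0 at an unadjusted p under 0.05. DESeq2 called 2 receptors down, beside 10.7% of all genes. The replicate block called 1 down, Ccr1 (log2 fold change -0.95, adjusted p = 0.0151), beside 21.3% of all genes.

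Comparisons of kidneys asked which ligands change with chronological age. From 3 to 24 months Cxcl13, the B cell attractant, rose 9.42-fold and Ccl5, a T cell attractant, 2.95-fold. Ccl5 was already 2.50-fold higher at 12 months, where Cxcl14 was 2.33-fold higher as well, and Cxcl13 was higher at 24 than at 12 months. None of these kidney calls was kept in every fit with 1 mouse left out. The filter left 26 of the 37 ligands for testing in the 9 kidneys.

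Between 24 and 3 months 2 ligands were called up and 0 down, against 1.89% of all 17067 tested genes up and 0.451% down. Between 12 and 3 months 2 were called up and 0 down, against 1.22% and 1.36%. Between 24 and 12 months 1 was called up and 0 down, against 0.896% and 0.434%. At an unadjusted p under 0.05 edgeR had 1, 2 and 3 ligands lower in these comparisons and 7, 4 and 6 higher. Over all genes, 18.2%, 16.5% and 15.2% had such a p in either direction. DESeq2 called 2, 3 and 2 up and 0, 0 and 1 down. Over all genes it called 2.42%, 1.77% and 1.64% up and 1.03%, 1.92% and 0.952% down. The comparisons share samples, and their medians over the tested ligands were 0.41, -0.12 and 0.52 on the log2 scale, beside 0.00, 0.00 and -0.00 over all genes.

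Cxcl13, which binds Cxcr5 and guides B cells into follicles, lies at chr5:95956951-95961068 on the plus strand. It stood at 0.0525, 0.0410 and 0.247 CPM in the 3-month-old, 0.139, 0.181 and 0.116 CPM in the 12-month-old and 1.02, 1.53 and 0.722 CPM in the 24-month-old kidneys. All 24-month-old kidneys, with 47 to 101 reads, were above all younger ones, which had 2 to 11 reads. The log2 fold change was 3.24 (SE 0.600, adjusted p = 0.0288) for 24 against 3 months and 2.89 (SE 0.567, adjusted p = 0.0499) for 24 against 12 months, and 0.35 (SE 0.656, adjusted p = 0.875) for 12 against 3 months. With each mouse left out in turn it was called in 2 of 6 fits against 3 months, with log2 fold changes of 2.82 to 4.5, and in 0 of 6 against 12 months, with 2.57 to 3.11 and an adjusted p of up to 0.178.

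The markers of B and plasma cells summed to 4.49, 2.27 and 6.57 CPM at 3 months, 9.56, 90.7 and 60.5 CPM at 12 months and 15.8, 104 and 29.5 CPM at 24 months, and their part in the values of Cxcl13 was not tested. At 12 and 24 months most of the mean sum was Jchain, the joining chain of secreted antibodies, with means of 50.0 and 44.4 CPM. At 3 months the mean of Jchain was 1.44 CPM, below the 1.81 CPM of Cd79b. Jchain was not called. Cd79a, a chain of the B cell receptor complex, stood at 0.158, 0.246 and 0.292 CPM, 0.989, 1.04 and 1.0 CPM and 1.10, 1.96 and 2.07 CPM at the 3 ages. It rose from 3 to 24 months (log2 fold change 2.86, adjusted p = 0.00418) and had risen by 12 months (log2 fold change 2.10, adjusted p = 0.0221), an age at which Cxcl13 was not called. Mzb1 and Cd79b were not called, with log2 fold changes of -0.57 and -0.19 for 24 against 3 months. Cxcr5, named after its values were seen because it is the receptor of Cxcl13, was at 0.0721 ± 0.0837, 0.250 ± 0.0703 and 0.499 ± 0.122 CPM at the 3 ages (mean ± SD, n = 3 each) and was not called (24 against 3 months, adjusted p = 0.0932). The other lymphoid ligands, Ccl19 and Ccl21a, which bind Ccr7, stayed between 0.0987 and 1.08 CPM in every kidney and were not called. The highest value of Ccl21a at 24 months, 0.611 CPM, was below its lowest at 3 months, 0.675 CPM (log2 fold change -0.62, SE 0.263, adjusted p = 0.258). At 12 months both genes lay below all 3-month-old kidneys. Ccl21a was at 0.434 to 0.510 CPM (log2 fold change -0.88, SE 0.268, adjusted p = 0.129), and Ccl19 at 0.0987 to 0.226 CPM against 0.289 to 0.742 CPM (log2 fold change -1.55, SE 0.478, adjusted p = 0.136).

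Ccl5, which attracts T cells and monocytes, lies at chr11:83525778-83530518 on the minus strand. It stood at 0.866, 1.04 and 0.787 CPM at 3 months, 2.08, 2.93 and 1.74 CPM at 12 months and 3.25, 2.28 and 2.44 CPM at 24 months. Every older kidney was above every 3-month-old one, and the 2 older ages overlapped. Log2 fold changes were 1.56 (SE 0.265, adjusted p = 0.0212) for 24 and 1.32 (SE 0.265, adjusted p = 0.0396) for 12 against 3 months, and 0.24 (SE 0.252, adjusted p = 0.664) for 24 against 12 months. With 1 mouse left out it was called in 2 of 6 and 1 of 6 fits against 3 months, with log2 fold changes of 1.39 to 1.69 and 1.09 to 1.47. The 12 T and NK cell markers summed to 3.96 to 5.63 CPM at 3 months, 6.56 to 11.9 at 12 and 8.51 to 12.2 at 24 months. At 24 against 3 months Cd3g (log2 fold change 1.68, adjusted p = 0.0148), Cd4 (1.60, 0.0242) and Cd3e (1.63, 0.0471) were called up. These were among 11 tested markers, beside 1.89% of all genes called up. Of the 11, 9 were higher (median log2 fold change 1.10), while Gzma and Klrb1c were lower without a call (-1.01 and -0.10). At 12 against 3 months only Cd3g was called (log2 fold change 1.34, adjusted p = 0.0374), beside 1.22%. The part of these cells in the values of Ccl5 was not tested.

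Of the related CC ligands, Ccl6 stood at 1.42, 1.5 and 3.04 CPM, 2.98, 5.08 and 3.11 CPM and 3.92, 4.24 and 2.80 CPM at the 3 ages, and Ccl9 at 1.34, 0.840 and 2.99 CPM, 1.42, 4.24 and 1.47 CPM and 2.09, 3.19 and 1.92 CPM. Their groups overlapped and neither was called at any age. Ccl4 lay between 0.135 and 0.415 CPM without a call, and Ccl3 did not pass the filter.

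**Figure D5:**
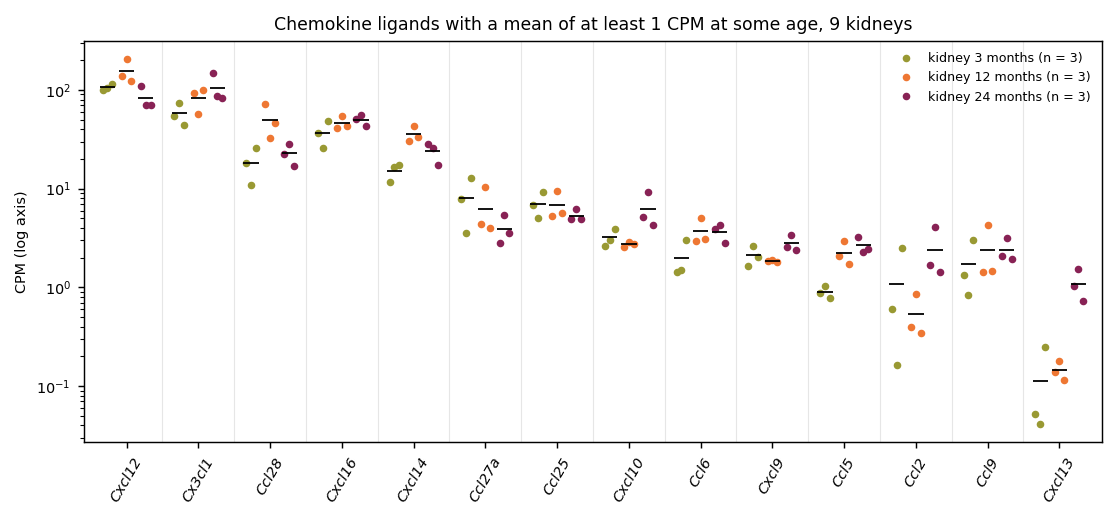
CPM of the 14 ligands with a mean of at least 1 CPM at some age in each of 9 kidneys (log axis; 3, 12 and 24 months, 3 mice each, bars for means). Cxcl13 at 24 months (0.722 to 1.53 CPM) and Ccl5 at 12 and 24 months (1.74 to 3.25 CPM) lie above all 3-month-old kidneys.

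Cxcl14, the epithelial ligand that also rose in senescent PTEC, stood at 11.8, 16.6 and 17.4 CPM at 3 months, 30.7, 42.7 and 33.3 CPM at 12 months and 28.5, 25.8 and 17.4 CPM at 24 months. The 12-month-old kidneys were above all others, and only this age was called against 3 months (log2 fold change 1.22, SE 0.235, adjusted p = 0.0366), in 1 of 6 fits with a mouse left out. For 24 against 3 months the log2 fold change was 0.65 (SE 0.233, adjusted p = 0.198). Ccl28, the Ccr10 ligand of mucosal epithelia, had the same order of means: 18, 10.9 and 25.7 CPM at 3 months, 72.5, 32.3 and 45.8 CPM at 12 and 22.7, 28.6 and 17 CPM at 24 months. It was not called by edgeR for 12 against 3 months (log2 fold change 1.46, SE 0.378, adjusted p = 0.0817) but was by DESeq2 (adjusted p = 0.00642). In the same comparison 2 of the 6 tubular epithelium markers were called down, Epcam (log2 fold change -1.10, adjusted p = 0.0148) and Krt18 (log2 fold change -2.21, adjusted p = 0.0396), beside 1.36% of all genes. The markers summed to 1181 to 1727 CPM at 3 and 883 to 1638 CPM at 12 months, and their part in these values was not tested.

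Cxcl12 stood at 100, 105 and 116 CPM at 3 months, 137, 206 and 123 CPM at 12 and 110, 70.0 and 70.5 CPM at 24 months. The 12-month-old kidneys were above all others, with a log2 fold change of 0.54 (SE 0.243, adjusted p = 0.316) against 3 months and -0.89 (SE 0.244, adjusted p = 0.124) for 24 against 12 months. DESeq2 called the second difference (adjusted p = 0.0235). The other epithelial ligands went without a call: Ccl25 at 6.77, 5.04 and 9.24, 5.26, 9.43 and 5.69, and 4.90, 6.23 and 4.88 CPM, and Ccl27a at 7.80, 3.56 and 12.8, 4.35, 10.3 and 4.01, and 2.84, 5.36 and 3.56 CPM.

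Of the membrane-anchored ligands, Cx3cl1 stood at 55.1, 74.5 and 44.2 CPM at 3 months, 92.9, 56.9 and 101 CPM at 12 months and 147, 87.2 and 82.1 CPM at 24 months. The 24-month-old kidneys were above the 3-month-old ones without a call (log2 fold change 0.86, SE 0.309, adjusted p = 0.196). Cxcl16 stood at 36.4, 25.9 and 48.4 CPM, 41.4, 54.9 and 42.7 CPM and 50.9, 55.5 and 43.0 CPM, with overlapping ages and a log2 fold change of 0.43 for 24 against 3 months (SE 0.233, adjusted p = 0.342).

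Interferon-induced ligands of Cxcr3 were present in kidney, and at 24 months Cxcl10 was above both younger ages in each mouse without passing the threshold. Cxcl10 stood at 2.63, 3.03 and 3.94 CPM at 3 months, 2.57, 2.89 and 2.74 CPM at 12 and 5.12, 9.26 and 4.25 CPM at 24 months. Its log2 fold change was 0.96 (SE 0.296, adjusted p = 0.143) against 3 and 1.18 (SE 0.297, adjusted p = 0.101) against 12 months, and DESeq2 called the latter (adjusted p = 0.0115). Cxcl9 stood at 1.65, 2.62 and 2.05 CPM, 1.86, 1.88 and 1.79 CPM and 2.55, 3.42 and 2.38 CPM. It was above 12 months in every 24-month-old kidney (log2 fold change 0.59, SE 0.228, adjusted p = 0.257) and overlapped with 3 months.

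Monocyte attractants varied between mice of one age. Ccl2 stood at 0.604, 0.164 and 2.50 CPM at 3 months, 0.399, 0.855 and 0.347 CPM at 12 and 1.68, 4.12 and 1.43 CPM at 24 months. It was higher in all 24-month-old than in all 12-month-old kidneys (log2 fold change 2.16, SE 0.847, adjusted p = 0.272), but overlapped with 3 months, where mouse 3 was high. That mouse and 24-month-old mouse 2 also had the highest neutrophil marker sums of their ages, 10.7 CPM beside 0.389 and 1.34 CPM, and 14.7 CPM beside 8.43 and 1.86 CPM. Both mice differed in other markers too, with the highest B and plasma cell sums of their ages (6.57 and 104 CPM). Their sums of proximal tubule markers (6498 and 10976 CPM) and tubular epithelium markers (1181 and 1379 CPM) were the lowest of their ages. The part of any of these cells was not tested. Ccl7 reached at most 0.315, 0.0987 and 0.942 CPM at the 3 ages (24 against 12 months, log2 fold change 2.69, SE 0.955, adjusted p = 0.226).

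Same-numbered kidneys of 12 and 24 months deviated together from their group means, with correlations of 0.385, 0.558 and 0.176 across genes, although the labels name nothing that these mice share. With the replicate number as a block in a fit of those ages alone, chosen after seeing the data, 6 ligands were called up at 24 months (Ccl8, Cxcl13, Cxcl10, Ccl12, Ccl7 and Ccl2) and 2 down (Cxcl14 and Cxcl12). Calls were also far more common over all genes in that fit, 1297 up and 903 down of 16686, against 153 and 74 of 17067 without the block in the fit of 3 ages. With the block over all 9 kidneys none was called in either direction. The remaining ligands were low: Ccl1, Ccl8, Ccl11, Ccl12, Ccl17, Ccl20, Ccl22, Ccl24, Cxcl1, Cxcl2, Cxcl3, Cxcl5, Cxcl15, Cxcl17 and Xcl1 had means under 1 CPM at each age, and no tested one among them was called in the fit without a block.

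Of the 18 chemokine receptors, 12 were tested in kidneys. From 3 to 24 months 11 were higher (median log2 fold change 1.18). At an unadjusted p under 0.05, 7 were higher, beside 18.2% of all genes in either direction, and DESeq2 called 4 up, beside 2.42% of all genes. EdgeR called 1, beside 1.89% of all genes called up. It was Xcr1, the receptor of Xcl1 on cross-presenting dendritic cells (0.557 ± 0.0479 to 1.59 ± 0.348 CPM, log2 fold change 1.51, adjusted p = 0.0148). Its ligand Xcl1 was at 0.237 and 0.295 CPM in these ages and not called (log2 fold change 0.32, SE 0.570, adjusted p = 0.749). From 3 to 12 months the median was 0.92 and edgeR called 0 receptors, with 7 at an unadjusted p under 0.05 and 3 called by DESeq2, beside 16.5% and 1.77% of all genes. From 12 to 24 months the median was 0.28 and edgeR called 0, with 1 under 0.05 and 1 called by DESeq2, beside 15.2% and 1.64%. Pan-leukocyte markers summed to 57.2 to 68.5 CPM at 3 months, 93.2 to 95.5 at 12 and 98.9 to 143 at 24 months, and their part in the receptor levels was not tested. Of the 13 NF-kB genes 10 were higher at 24 than at 3 months (median log2 fold change 0.35). EdgeR called 0 of them, with 5 higher and 1 lower at an unadjusted p under 0.05, beside 18.2% of all genes. DESeq2 called 1 up, beside 2.42%. Between 12 and 3 months edgeR and DESeq2 each called 0, with 1 higher at an unadjusted p under 0.05. Between 24 and 12 months edgeR called 1 down, Chuk, a catalytic subunit of the IkB kinase (log2 fold change -0.67, SE 0.123, adjusted p = 0.0402), beside 0.434% of all genes called down, and 2 were higher at an unadjusted p under 0.05.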

How the data were processed

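RNA from 8 PTEC cultures and 9 kidneys had been made into stranded poly(A) libraries, sequenced in paired-end reads and processed by the authors with nf-core/rnaseq on GRCm38 with a GENCODE annotation. The aligner, the counter and its strand setting are not given in the sources used here. The authors deposited raw counts per gene, without normalization, and these were used as deposited. Identifiers were matched without their version. Symbols, positions and exon lengths were taken from a later GENCODE release than the authors name, and promoter windows from RefSeq (GRCm38.p6). The 37 ligands and all gene lists were chosen with earlier results of these data known.

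Fits were made with edgeR 4.0.16 (with limma 3.58.1) and DESeq2 1.42.0 under R 4.3.3. Tables and figures came from Python 3.11.15 with pandas 2.3.3, numpy 2.4.6 and matplotlib 3.10.9. Cultures and kidneys had separate fits, with the 3 ages in 1 fit. Libraries were scaled with TMM, low genes removed with filterByExpr, and groups compared with edgeR's quasi-likelihood test (robust) with Benjamini-Hochberg adjustment over all genes tested. Calls needed an adjusted p under 0.05 with a log2 fold change beyond 0.5 in either direction. Where no tool is named, an adjusted p is from edgeR. The fits were tested on simulated data drawn from the real libraries.

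Values in every sample are given for ligands that were called or reached a mean of 1 CPM in some group. From other lists, called genes are named, apart from some that are not reported here. Depth per library is given with the results.

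The labels number PTEC of both groups 1 to 4. Same-numbered cultures deviated from their group means together, with r across genes of 0.282, 0.38, 0.612 and 0.184, which met the criterion for pairs, a correlation over 0.1 in each. The PTEC results are from the fit without pairs, and those of the fit with the replicate number as a block are printed where they change a call. Alternatives were other size factors, no filter, DESeq2, a replicate block, a log2 threshold of 1, the compared ages alone and each library left out. Data of the study other than these count files were not used here.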

Additional observations from a re-analysis of the deposited data

Results flagged for a closer look

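In groups of 4 cultures, a value was singled out where its gap to the nearest culture took more of the group's range than Dixon's critical value for 4 samples allows. Of 36 groups tested 6 met this, and chance gives about 1 in 20. In non-senescent culture 2, Ccl6 was at 24.1 CPM beside 7.96 to 10.3 CPM in the others. Ccl9 was at 7.94 CPM there, beside 2.44 to 3.2 CPM. Cxcl1 was lowest in the same culture, at 35.4 CPM beside 47.3 to 47.7 CPM, and Cxcl5 highest, at 4.30 CPM beside 3.78 to 3.80 CPM. In senescent culture 3, Ccl27a was at 5.97 CPM beside 3.95 to 4.28 CPM. Cxcl14 was at 8.16 CPM there, beside 4.19 to 4.76 CPM.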

How the results depend on the processing

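In PTEC, Cxcl2, Cxcl5, Cxcl3, Ccl20, Cxcl1, Ccl2, Cxcl14 and Ccl17 were called in the same direction in all 13 alternative fits, Ccl27a in 12 and Ccl7 in 3. A log2 threshold of 1 left 3 ligands up and 5 down, without Ccl7 and Ccl2, and changed no kidney call. The replicate block gave 5 ligands up and 9 down, beside 23.2% and 21.3% of all genes. Leaving out culture 2 of both groups, chosen after seeing the data, gave 2 up and 6 down, beside 15.4% and 14.3%. With each culture left out, 3 ligands were called up each time and 6 to 8 down. Over all genes those fits called 16.8% to 21.4% up and 15.1% to 20.4% down. The kidney calls were less steady. With 1 mouse left out, the ligands called up numbered 0 to 2 for 24 against 3 months, 0 to 2 for 12 against 3 months and 0 to 0 for 24 against 12 months. Over all genes those fits called 0.298% to 2.62%, 0.177% to 1.42% and 0% to 0.315% up. Calls against 3 months were kept in full only without 3-month-old mouse 2. The replicate block over 9 kidneys gave 0 up in each of the 3 comparisons, beside 0.598%, 0.305% and 0% of all genes. Same-numbered kidneys correlated with -0.0354, -0.422 and -0.221 for 24 against 3 months and -0.0565, -0.704 and -0.616 for 12 against 3 months, so the numbers did not pair those mice. Fits of the compared ages alone gave 1, 0 and 1 up, beside 1.26%, 0.234% and 0.845% of all genes. For 24 against 12 months DESeq2 gave 2 up and 1 down, beside 1.64% and 0.952% of all genes. The block with the ages alone, chosen after seeing the data, gave 6 up and 2 down. Over all genes that comparison had 153 calls up and 74 down without a block, 0 and 0 with the block over 9 kidneys, and 1297 and 903 with the block and the ages alone. The causes were not tested.

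Some log2 fold changes that were never called changed sign with 1 library left out: Cxcl12 in PTEC (-0.69 to 0.22), for 12 against 3 months Ccl9 (-0.25 to 1.13), Ccl25 (-0.35 to 0.20), Ccl2 (-1.53 to 0.51) and Ccl27a (-0.94 to 0.14), and for 24 against 12 months Ccl6 (-0.16 to 0.26, and 0.00 with the replicate block) and Ccl9 (-0.25 to 0.73). Other size factors moved the median of all genes by at most 0.01. Depth limits the ligands under 1 CPM, of which Cxcl13 and Ccl17 had 2 to 11 and 6 to 8 reads in their low groups.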
